A study of Danio rerio with 4 samples.

Results

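The 8 genes described here are the ligands and receptors of the Pdgf and Cxcl12 systems that guide cranial neural crest: the receptors pdgfra and pdgfrb, their ligands pdgfaa and pdgfab, the chemokines cxcl12a and cxcl12b, and the chemokine receptors cxcr4a and cxcr4b. They were picked by symbol from a table of 31953 zebrafish (Danio rerio) genes, and all 8 were found, pdgfrb under a symbol in capitals. The table holds 4 RNA-seq libraries in 3 groups, each from pharyngeal arch cells at the 36 hours post-fertilization (hpf) stage, sorted for fli1a:GFP and sox10:DsRed together. Both transgenes are thus shared by every group. Embryos mutant for nr2f2 and nr2f5 gave 2 libraries, mutant 1 and mutant 2. They were picked out by a gap in the eye (ocular coloboma), and 37 and 84 embryos with 18858 and 30655 cells were pooled for them, numbers that the labels do not tie to one mutant library or the other. The control was 1 library of 86517 cells from 69 embryos with the sox10:Gal4 driver. The third group was 1 library of 56866 cells from 84 embryos that carried UAS:Nr2f5 beside sox10:Gal4, in which the driver is meant to switch on Nr2f5 in crest. Embryos of the last 2 groups were genotyped from fin biopsies at 24 hpf. The mutants are not labelled with the driver or a biopsy, so effects of these and of the mutations cannot be told apart against the control. The same holds against the UAS:Nr2f5 library, where the UAS:Nr2f5 transgene is a further difference.

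Values are RPM: reads of the gene in every 1000000 that the library holds, where the full scale is an assumption. They are not divided by gene length, so no level is compared here between 2 genes. One read was worth 0.0287 RPM (mutant 1) to 0.0987 RPM (the UAS:Nr2f5 library, the shallowest of the 4). Of the genes named in the labels, nr2f5 was at 12.2 and 14.7 RPM in the mutants, 28.8 for the control and 30.3 for the library labelled UAS:Nr2f5. In RPM as deposited, the gain its label gives was thus not seen at this gene. For nr2f2 the mutants had 38.9 and 30.9 RPM, beside 41.4 for the control and 28.1 for the UAS:Nr2f5 library. As deposited, the mutants were thus not below both other libraries there. A scaling to arch crest genes, used below, divided the UAS:Nr2f5 library by 0.485, the control by 0.962 and the mutants by 1.43 and 1.51. That raises the UAS:Nr2f5 library relative to the others, so both readings depend on the scaling. Directions drawn from the UAS:Nr2f5 library rest on its label.

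Pdgf ligands are secreted dimers that bind receptor tyrosine kinases. Pdgfra is the receptor by which crest cells of the face respond to Pdgfa ligands made in nearby epithelia, and in zebrafish it is needed for crest to reach the roof of the mouth. Pdgfrb is best known from the mural cells that coat blood vessels and is also found in crest mesenchyme. Cxcl12 is a chemokine that attracts cells carrying Cxcr4, a receptor coupled to Gi proteins. In zebrafish, Cxcl12a and Cxcr4b steer germ cells and the lateral line primordium, and Cxcr4a acts in vessels, endoderm and crest. By this stage most cranial crest has reached the arches, so these libraries sample cells after the main migration.

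Of the 8 genes, the receptor gene pdgfra and the ligand gene pdgfab passed limma's test, which was run over all genes averaging 1 RPM or more. Both were higher in the mutants than in the library labelled UAS:Nr2f5, a comparison in which limma called 20.1% of all genes. Of the 2, pdgfra lay in the other direction when libraries were scaled to arch crest genes. Neither passed when no filter on low genes was set (limma adjusted p = 0.135 and 0.164), and pdgfab met that filter only through its level in the mutants, so its call is no support for a difference. None of the 7 genes tested passed against the control, beside 1.04% of all genes. cxcr4b was lower in both mutants than in both other libraries and did not pass. cxcl12a stayed within a narrow range in all 4 libraries, and cxcl12b and cxcr4a were highest in the UAS:Nr2f5 library. pdgfaa was at 5 to 11 reads per library, too few for a mean of 1 RPM, and was not tested. Each other gene passed that filter, cxcr4b only through its values in the control and the UAS:Nr2f5 library.

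**Figure D1:**
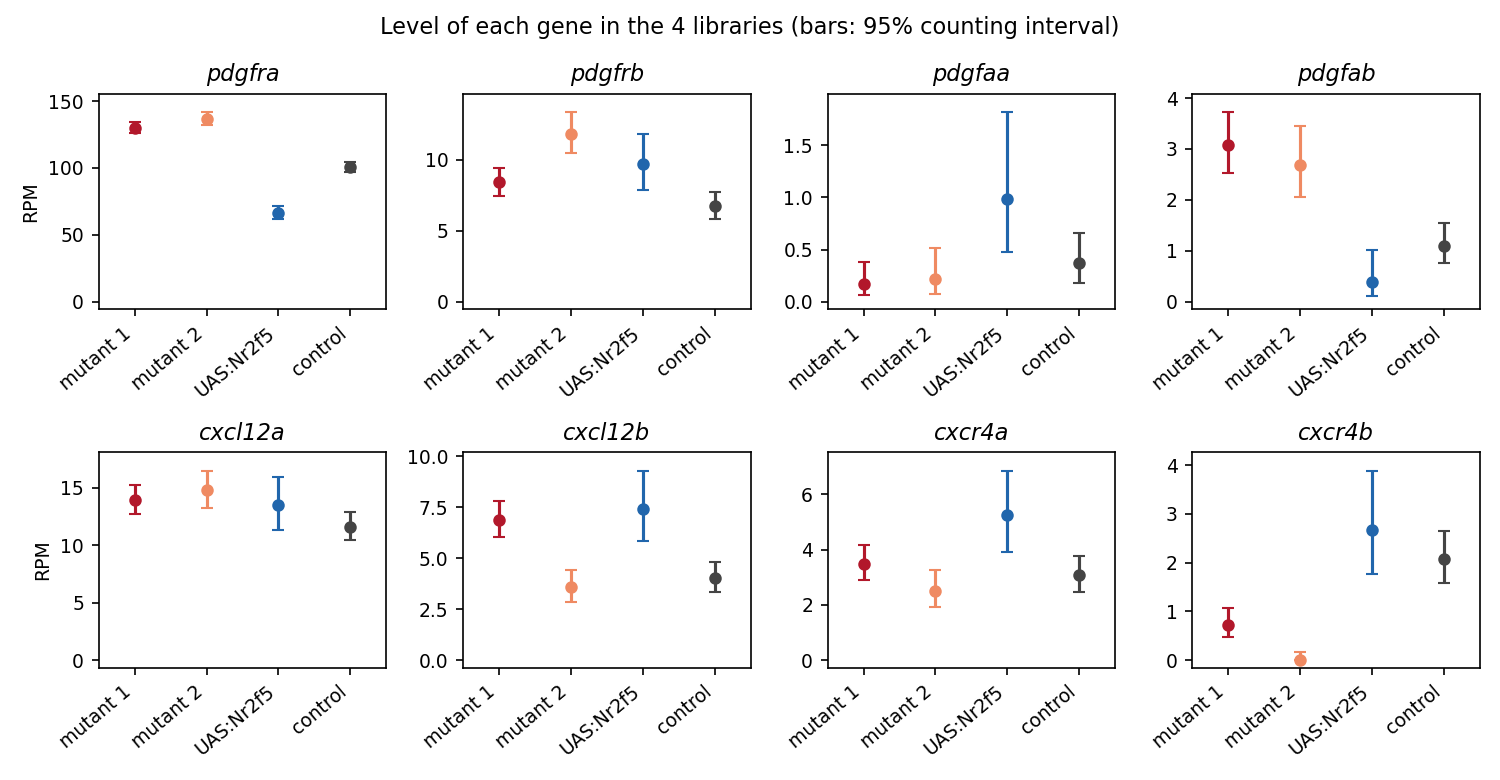
RPM (vertical axes, linear, each with its own scale) of the 8 genes in the 2 mutants, the control and the UAS:Nr2f5 library, 1 point per library. Bars are exact 95% counting intervals on the implied reads and hold no variation between embryos; pdgfra runs from 66.5 to 137 RPM and cxcr4b from 0 to 2.67.

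The receptor gene pdgfra (ENSDARG00000070494) stood at 130 RPM in mutant 1 and 137 in mutant 2, beside 101 for the control and 66.5 for the UAS:Nr2f5 library. Both mutants lay above both other libraries, and the mutants differed from each other by less than either did from the others. The mutant mean of 133 ± 4.53 RPM (SD, n = 2) was 2.01-fold that of the UAS:Nr2f5 library, a difference of 0.99 ± 0.17 (SE) in log2(RPM + 1) with a limma adjusted p of 0.0168. The median gene differed by 0.17 in the same comparison, which leaves 0.82 for pdgfra relative to it. Under scalings to arch crest genes, which moved the median gene to −1.19 or −1.03, the pdgfra difference was −0.59 or −0.41. Its direction thus depends on what the libraries are scaled to. Across all alternatives its adjusted p ran from 1.28e-05 to 0.135, the highest without a filter on low genes.

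Against the control, pdgfra was 1.29-fold higher in mutant 1 (95% counting interval 1.23 to 1.35) and 1.36-fold higher in mutant 2 (1.29 to 1.43). limma gave a log2 difference of 0.40 ± 0.17 and an adjusted p of 0.395, with −0.21 and −0.34 under the arch crest scalings. In the UAS:Nr2f5 library pdgfra was 1.52-fold lower than in the control (1.39 to 1.65), with 674 reads against 3020. There is 1 library on each side of that ratio, and its sign also turned under the arch crest scalings, to 0.39 and 0.08.

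Between groups, the summed level of the 14 arch crest marker genes followed the order of pdgfra, though single members such as foxd3 (lowest in the control) and tfap2a did not. The sum was 510 and 498 RPM in the mutants, 322 for the control and 183 for the UAS:Nr2f5 library, with none of the 14 at 0. Against the UAS:Nr2f5 library 11 of them passed as higher in the mutants and 0 as lower (limma), beside 11.2% and 8.92% of all genes. Against the control 0 passed, beside 1.04% of all genes. The list's medians in these 2 comparisons were 1.53 and 0.75, beside 0.17 and 0.03 for all genes. As a share of that sum, pdgfra came to 25.5% and 27.5% in the mutants, 31.3% for the control and 36.4% for the UAS:Nr2f5 library. Between groups this is the reverse of the order of its RPM. In bulk RNA, fewer cells of a type and less RNA per cell cannot be told apart. The part of crest content in the pdgfra difference was not tested.

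pdgfrb (ENSDARG00000100897) was at 8.39 and 11.8 RPM in the mutants, 6.71 for the control and 9.68 for the UAS:Nr2f5 library. The control was lowest, and the UAS:Nr2f5 value lay between the mutants. The mutants differed from each other by 1.41-fold (counting interval 1.19 to 1.67), a wider gap than in 81.6% of 2293 genes of like level. limma gave 0.51 ± 0.29 against the control (adjusted p = 0.536) and 0.04 ± 0.29 against the UAS:Nr2f5 library (adjusted p = 0.936). Both signs depend on the scaling. Among the mural cell markers, acta2 and tagln, which encode contractile proteins of smooth muscle, were at 0 in all libraries but the control, where each was at 0.40 RPM. abcc9, a potassium channel subunit gene of pericytes, was instead highest in the UAS:Nr2f5 library, at 4.94 against 1.97 RPM in the control and 1.38 and 1.19 in the mutants (limma adjusted p = 0.045 for the mutants against UAS:Nr2f5). rgs5b and kcnj8 were also highest there (0.790 and 0.592 RPM), and rgs5a was highest in mutant 1 (1.52 RPM). Like acta2 and tagln, each of these averaged under 1 RPM. All mural markers summed to 140 and 142 RPM in the mutants, 151 for the control and 147 for the UAS:Nr2f5 library. Nearly all of it came from notch3 and cspg4, which went opposite ways. notch3 was at 76.6 and 85.1 RPM in the mutants, 105 for the control and 102 for the UAS:Nr2f5 library. For cspg4 the values were 59.3, 54.3, 40.7 and 37.4 RPM in the same order, and neither gene passed in a contrast.

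The ligand gene pdgfab (ENSDARG00000098578) was at 3.08 and 2.69 RPM in the mutants, 1.102 for the control and 0.395 for the UAS:Nr2f5 library. These values stand for 107, 61, 33 and 4 reads. The mutants agree within sampling noise (ratio 1.14, 0.827 to 1.59) and both exceed the other libraries. Against the UAS:Nr2f5 library the mutants were 7.79-fold (2.95 to 29.1) and 6.81-fold higher (2.53 to 25.8), and limma gave 1.48 ± 0.34 with an adjusted p of 0.0337. The sign held under all 4 scalings tried, at 0.70 with the arch crest scaling, where the adjusted p was 0.0604. Over all alternatives the adjusted p ran from 0.0364 to 0.164.

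Against the control, pdgfab was 2.79-fold higher in mutant 1 (1.87 to 4.26) and 2.44-fold higher in mutant 2 (1.57 to 3.85). The log2 difference of 0.88 ± 0.34 exceeded that of 98.0% of the genes tested but did not pass, with a limma adjusted p of 0.348. In the UAS:Nr2f5 library the ratio to the control was 0.358, and its counting interval of 0.0922 to 1.008 holds 1. As a share of the summed arch crest markers, pdgfab was at 0.603% and 0.541% in the mutants, 0.342% for the control and 0.216% for the UAS:Nr2f5 library, the same order as its RPM.

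pdgfaa (ENSDARG00000055505), the paralogous ligand gene, was at 0.172 RPM in mutant 1, 0.220 in mutant 2, 0.367 for the control and 0.987 for the UAS:Nr2f5 library. Behind these are 6, 5, 11 and 10 reads. The UAS:Nr2f5 library was highest, at 2.69-fold the control (counting interval 1.02 to 6.97). Each mutant's ratio to the control had an interval that holds 1. Epidermis is an epithelium, as are the known sources of Pdgfa ligands in the face. Its markers summed to 91.3 and 40.5 RPM in the mutants, 801 for the control and 2418 for the UAS:Nr2f5 library. As a share of that sum, pdgfaa came to 0.189% and 0.544% in the mutants, 0.0459% for the control and 0.0408% for the UAS:Nr2f5 library. These shares rest on the few reads above, and the part of epidermis in the pdgfaa values was not tested.

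The chemokine gene cxcl12a (ENSDARG00000037116) was at 14.0 and 14.8 RPM in the mutants, 11.6 for the control and 13.5 for the UAS:Nr2f5 library. The highest and lowest libraries were 1.28-fold apart (counting interval 1.09 to 1.49), and the 2 mutants agree within sampling noise. limma gave 0.29 ± 0.21 against the control (adjusted p = 0.653) and 0.08 ± 0.21 against the UAS:Nr2f5 library (adjusted p = 0.801). With the arch crest scaling these became −0.28 and −1.42, and the second passed (adjusted p = 0.000813). The first did not pass (adjusted p = 0.359), and this scaling moved the median gene to −0.45 and −1.19 in the same comparisons.

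cxcl12b (ENSDARG00000055100) varied more, at 6.87 RPM in mutant 1 and 3.57 in mutant 2, beside 4.04 for the control and 7.41 for the UAS:Nr2f5 library. The mutants fell on different sides of the control and were 1.92-fold apart (1.49 to 2.51), further than in 93.6% of 2874 genes of like level. Mutant 1 was close to the UAS:Nr2f5 library (ratio 0.928, 0.713 to 1.22) and mutant 2 to the control (0.884, 0.659 to 1.18). limma's differences of 0.25 ± 0.41 against the control and −0.49 ± 0.41 against the UAS:Nr2f5 library had adjusted p-values of 0.864 and 0.423. The UAS:Nr2f5 library was 1.83-fold above the control (1.36 to 2.46). Of the reads in the cxcl12 pair, cxcl12b held 33.0% in mutant 1 (Clopper-Pearson 95% interval 29.5 to 36.5), 19.4% in mutant 2 (15.7 to 23.6), 25.8% for the control (21.9 to 30.0) and 35.4% for the UAS:Nr2f5 library (28.9 to 42.2). The mutant pair differed in this share by more than either mutant did from the control.

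cxcr4a (ENSDARG00000057633) was at 3.48 and 2.51 RPM in the mutants, 3.07 for the control and 5.23 for the UAS:Nr2f5 library. The UAS:Nr2f5 library was highest, at 1.70-fold the control (1.19 to 2.41), and the mutants lay on both sides of the control. limma gave −0.04 ± 0.37 against the control (adjusted p = 0.984) and −0.65 ± 0.37 against the UAS:Nr2f5 library (adjusted p = 0.246). The endothelial marker list was also highest in the UAS:Nr2f5 library, with sums of 10.9 and 17.1 RPM in the mutants, 21.0 in the control and 40.8 there. kdrl, the Vegf receptor gene of blood vessels, made up much of that, at 5.06, 7.50, 5.81 and 17.9 RPM in the same order. tek and cldn5b were also highest there, at 3.36 RPM each against 0.935 and 0.401 in the control. On the log2(RPM + 1) scale, 3 of the 7 measured members were at least 2-fold above the control there and 0 below. Of all genes, 6.79% and 9.17% were. tek and cldn5b met the filter only through that library, so nothing is read from this count. Not all members followed. flt4, the receptor gene of lymphatic vessels, was at 2.17 RPM in the UAS:Nr2f5 library against 2.74 in the control. sox18, a vascular transcription factor gene, was at 1.68 against 2.20. Of that list's sum, cxcr4a came to 31.9% in mutant 1, 14.7% in mutant 2, 14.6% for the control and 12.8% for the UAS:Nr2f5 library. The part of endothelial RNA in the cxcr4a values was not tested.

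The paralogue cxcr4b (ENSDARG00000041959) was at 0.719 RPM in mutant 1 and 0 in mutant 2, beside 2.07 for the control and 2.67 for the UAS:Nr2f5 library. Mutant 1 had 25 reads and mutant 2 none, against 62 and 27 in the other libraries. A count of 0 in mutant 2 allows up to 3 reads (0.132 RPM). The exact counting interval of the ratio to mutant 2, which takes in the error of both libraries, starts at 12.4-fold for the control, 15.3-fold for the UAS:Nr2f5 library and 4.10-fold for mutant 1. Mutant 1 was 2.88-fold lower than the control (1.78 to 4.79). By the 4.10-fold bound the mutants also differed from each other beyond counting error. Their gap in log2(RPM + 1) was wider than in 87.4% of 2655 genes of like level. limma gave −1.23 ± 0.41 against the control (adjusted p = 0.269) and −1.48 ± 0.41 against the UAS:Nr2f5 library (adjusted p = 0.0534). The second passed with the median-ratio scaling (adjusted p = 0.0432). Both passed with the arch crest scaling, which moved the median gene to −0.45 and −1.19. Without a filter on low genes the limma adjusted p-values were 0.506 and 0.338, and with 0.1 RPM added they were 0.51 and 0.168. cxcr4b met the filter only through the control and the UAS:Nr2f5 library, so its calls are no support for a difference. The fitted differences depend on the added 1 RPM and are no bounds.

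The summed white blood cell markers followed the same order as cxcr4b between groups. Their sum was 9.05 and 7.41 RPM in the mutants, 30.0 for the control and 38.0 for the UAS:Nr2f5 library. All 6 members averaging 1 RPM or more were lower in both mutants than in the control. Genes low in the mutants can meet that filter through the other libraries, so this count is partly set by it. Under the filter, ptprc and marco were also lower in both mutants, while mpeg1.1 and cebpa each exceeded the control in 1 mutant. limma called 5 of the 6 lower than in the UAS:Nr2f5 library and 0 against the control, beside 8.92% and 1.01% of all genes. Of those called, spi1b and csf1ra (mutant means 0.237 and 0.903 RPM) met the filter only through libraries where they were higher. Their calls are thus no support for a difference, and nothing is read from this limma count. lyz, the lysozyme gene of granulocytes and macrophages, was at 1.93, 1.81, 7.71 and 10.4 RPM. cxcr4b came to 7.94% of that list's sum in mutant 1, 0% in mutant 2, 6.91% for the control and 7.01% for the UAS:Nr2f5 library. Other lists were also lowest in the mutants. Neuronal markers summed to 48.0 and 49.9 RPM there, 150 for the control and 174 for the UAS:Nr2f5 library. Glial markers came to 8.77, 7.10, 59.7 and 61.2 RPM in the same order, muscle markers to 38.6, 57.2, 1343 and 4501, and pouch endoderm markers to 22.9, 23.7, 30.1 and 27.9. The part of these cells in the cxcr4b values was not tested. In the cxcr4 pair, cxcr4b held 17.1% of reads in mutant 1 (11.4 to 24.2), 0 of 57 reads in mutant 2 (up to 6.27%), 40.3% for the control (32.5 to 48.5) and 33.8% for the UAS:Nr2f5 library (23.5 to 45.2). Both mutants thus lay below both other libraries in this share, and among pairs of a mutant with another library the exact intervals overlap for mutant 1 and the UAS:Nr2f5 library alone.

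**Figure D2:**
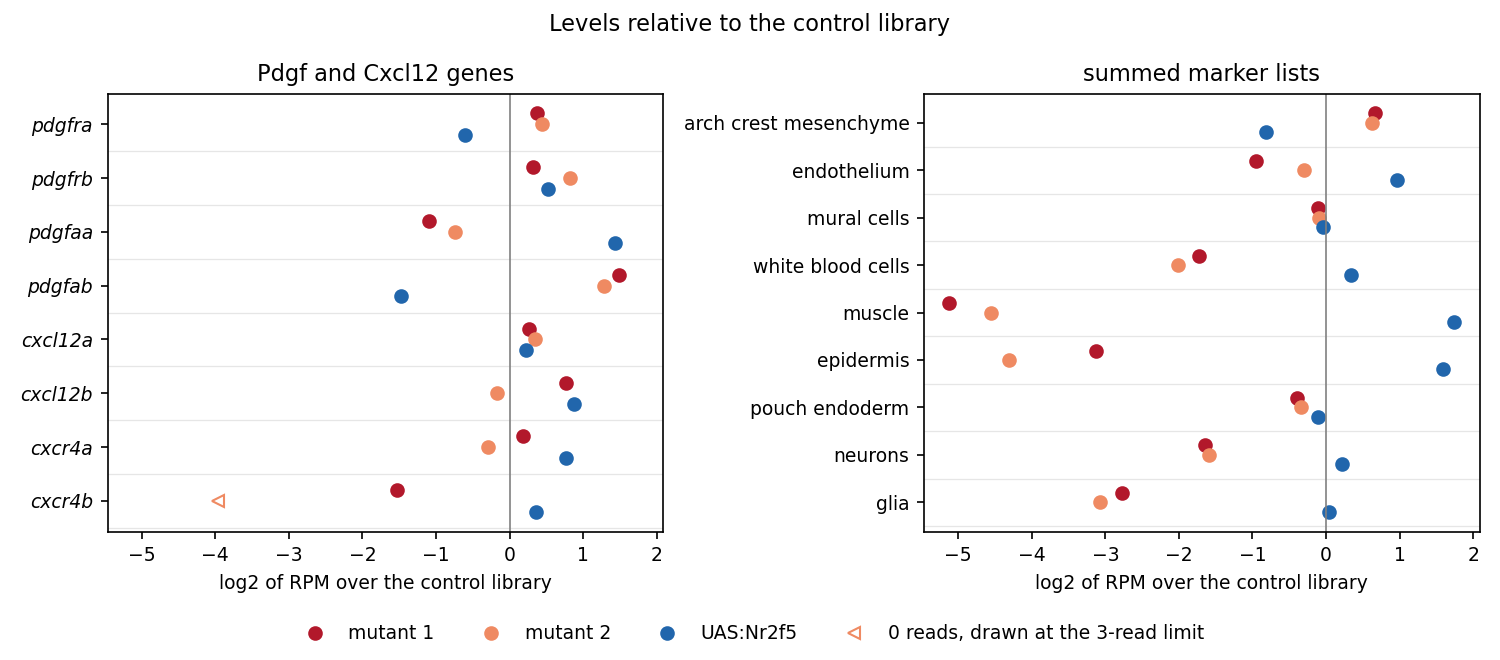
Log2 of RPM over the control library for the 8 genes (left) and for the summed RPM of 9 marker lists (right), 1 point each for mutant 1, mutant 2 and the UAS:Nr2f5 library; the open triangle is a bound at the 3-read limit. pdgfra and pdgfab share the order of the summed arch crest list, highest in the mutants and lowest in the UAS:Nr2f5 library. cxcr4b lies below the control in both mutants, as every list shown except the arch crest one does.

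Counted over the 7 genes tested, 2 were higher in the mutants than in the UAS:Nr2f5 library and 0 lower, while limma called 11.2% of all 11391 genes higher and 8.92% lower, 20.1% in all. With 7 members the count of 2 is close enough to that background that nothing is read from it. At least 2-fold in both mutants on the log2(RPM + 1) scale, 1 gene was higher (pdgfab) and 1 lower (cxcr4b), where 9.02% and 9.79% of all genes were. Against the control, limma called 0 of the 7 and 1.04% of all genes, 0.0263% higher and 1.01% lower. At an unadjusted limma p under 0.05 there were 2 of the 7, pdgfab and cxcr4b, beside 1505 of all 11391 genes. Each met the filter only through the libraries where it was high, so nothing is read from this count. On the log2(RPM + 1) scale no member was 2-fold from the control in both mutants in either direction, although pdgfab and cxcr4b were so in plain RPM. Of all genes, 0.579% were 2-fold higher there and 5.36% lower. The 2 contrasts share the mutant libraries and are no separate evidence.

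**Figure D3:**
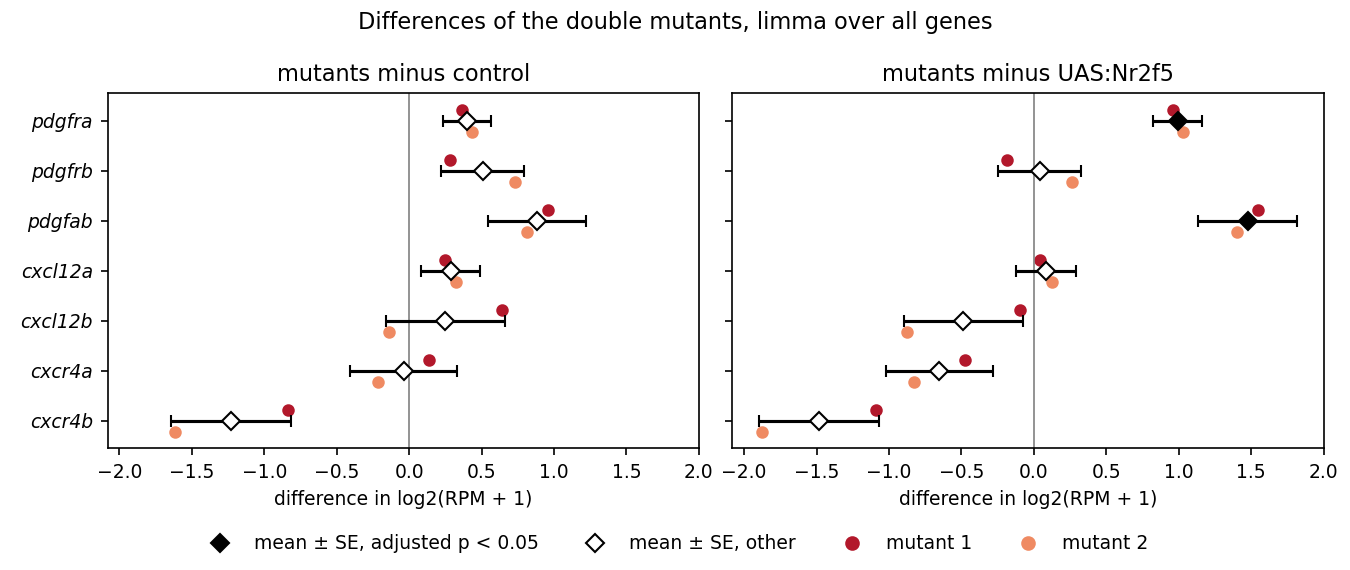
Differences in log2(RPM + 1) of the double mutants from the control (left) and from the UAS:Nr2f5 library (right) for the 7 genes tested. Diamonds are limma means with SE, filled where the adjusted p is under 0.05, and circles are the single mutants; pdgfra (0.99) and pdgfab (1.48) are the filled ones, and pdgfra turns negative when scaled to arch crest genes.

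Between the control and the library labelled UAS:Nr2f5 there is no test, and on the log2(RPM + 1) scale 0 of the 7 genes were 2-fold apart (in plain RPM pdgfab was), where 16% of all genes were (6.79% higher and 9.17% lower). Counting intervals without 1 were found above it for pdgfrb, cxcl12b and cxcr4a and below it for pdgfra, 4 of 7 against 57.4% of all genes (22.9% above and 34.6% below). cxcl12a and cxcr4b had intervals that hold 1, at ratios of 1.16 (0.948 to 1.42) and 1.29 (0.788 to 2.05). Both mutant values exceeded both other libraries for pdgfra, pdgfab and cxcl12a, as for 28.7% of all genes, and below both for cxcr4b, as for 20.4%.

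The scaling decides several of these directions. Scaled to a common sum, the 7 genes kept their signs in each comparison except pdgfrb against the UAS:Nr2f5 library, and the median-ratio scaling also turned cxcl12a there. The arch crest scaling divided the mutants by 1.43 and 1.51, the UAS:Nr2f5 library by 0.485 and the control by 0.962. It moved the median gene to −1.19 for the mutants against the UAS:Nr2f5 library and to −0.45 against the control. Under it 6 members differed from the UAS:Nr2f5 library, each lower in the mutants, and pdgfab alone stayed higher. Also lower were 23 of the 29 measured Pdgf receptor signalling genes and 9 of the 13 measured Cxcl12 partners. The share of all genes called under it was not computed, so nothing is read from the count of 6 or from these list counts. dlx2a, dlx5a, hand2 and barx1 are in the arch crest list and were its 4 genes furthest below the control in the UAS:Nr2f5 library. Without these 4 genes, an alternative chosen after seeing the data, the same 6 members passed in the same direction.

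**Figure D4:**
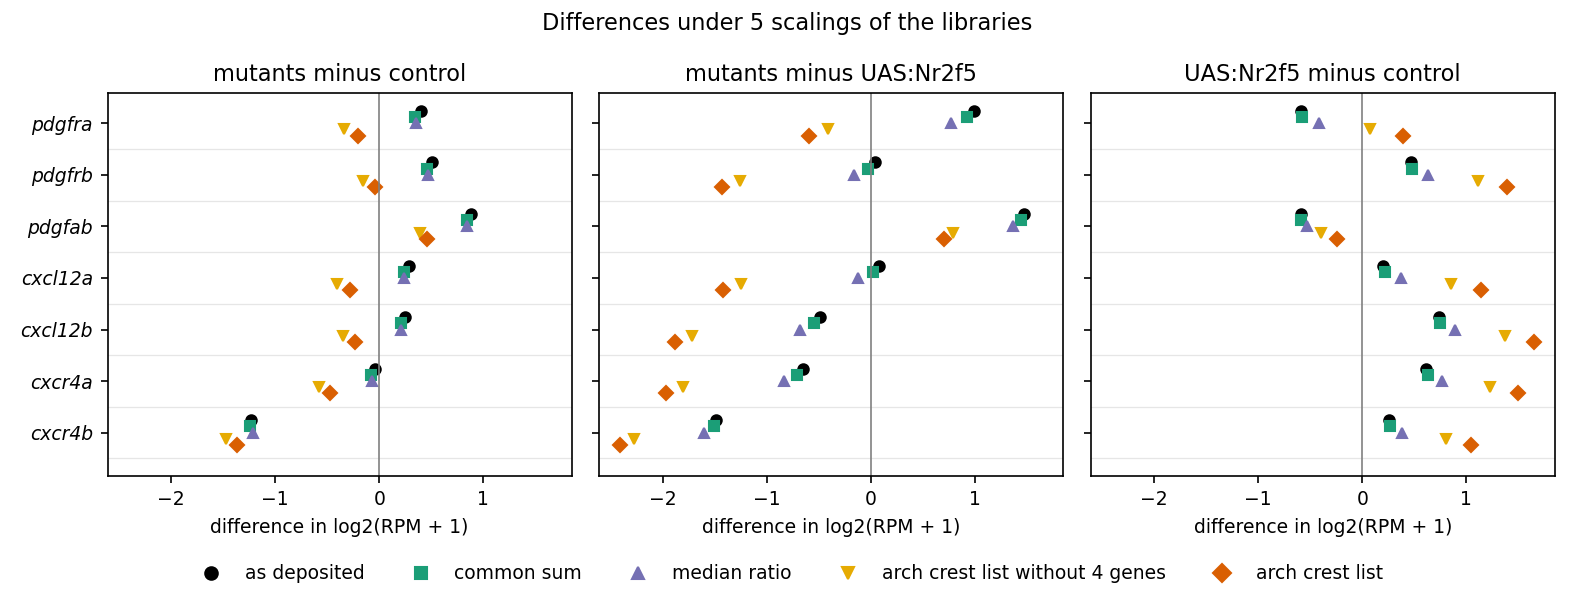
Differences in log2(RPM + 1) for the 7 genes under 5 scalings of the libraries, in each comparison. In the middle panel pdgfra moves from 0.99 as deposited to −0.41 and −0.59 under the 2 arch crest scalings, whereas pdgfab stays above 0 and cxcr4b below 0 under all 5.

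Among the other genes of the Pdgf system, nrp1a and pdgfbb were higher in the mutants than in the UAS:Nr2f5 library and nrp1b was lower, 3 of 7 measured beside 20.1% of all genes. The ligand gene pdgfbb, whose mammalian counterpart recruits mural cells, was at 7.47 and 5.78 RPM in the mutants, 4.58 for the control and 0.790 for the UAS:Nr2f5 library, where it had 8 reads. Its difference from that library was 2.08 ± 0.35 (limma adjusted p = 0.0168), and it passed with the same sign under all 4 other scalings. Against the control the UAS:Nr2f5 library was 5.79-fold lower (2.86 to 13.7). In RPM, pdgfbb and pdgfab were thus both lowest in the UAS:Nr2f5 library and highest in the mutants. The mutants' pdgfbb difference from the control (0.44 ± 0.35, adjusted p = 0.686) turned to −0.07 under the arch crest scaling.

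nrp1a, which encodes a semaphorin and Vegf co-receptor that also binds Pdgf ligands, was at 50.6 and 59.1 RPM in the mutants against 17.6 in the UAS:Nr2f5 library (1.58 ± 0.19, limma adjusted p = 0.00744), a difference that was 0.03 under the arch crest scaling. It was the 1 gene of the 49 measured in the 3 pathway lists to pass against the control (21.1 RPM, limma adjusted p = 0.0477). limma called 1.04% of all genes there, so nothing is read from this count. The nrp1a direction was the same under every scaling tried, and its adjusted p under other filters, pseudocounts or no trend is not given here. Its paralogue nrp1b moved the other way, at 3.88 and 5.16 RPM against 14.0 in the UAS:Nr2f5 library (adjusted p = 0.0249) and 7.38 in the control (adjusted p = 0.459). pdgfc, another Pdgfra ligand gene, was nearly level at 8.34, 7.67, 8.69 and 8.85 RPM (both mutants, then UAS:Nr2f5 and control). furina, a proprotein convertase gene, was at 17.3 and 21.6 RPM in the mutants, 16.1 for the control and 22.4 for the UAS:Nr2f5 library, and passed in neither contrast. pdgfba was under 1 RPM in all 4 libraries and pdgfd was listed at 0 in all. The list's median was −0.11 against the UAS:Nr2f5 library and 0.25 against the control, beside 0.17 and 0.03 for all genes.

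Of 29 measured genes that carry the signal of Pdgf receptors inside the cell, 5 were higher in the mutants than in the UAS:Nr2f5 library and 1 lower, beside 11.2% and 8.92% of all genes. The list median was 0.51, where that of all genes was 0.17. The 5 were plcg1 (phospholipase C gamma, 42.2 ± 3.999 against 22.0 RPM, limma adjusted p = 0.0245), pik3r2 (a regulatory subunit of PI3 kinase, 36.7 ± 0.0945 against 19.9, 0.0253), the Ras exchange factor gene sos2 (0.0476) and the adaptor genes crk (0.0487) and crkl (0.0476). With the median-ratio scaling 2 of the list were higher, and with the arch crest scaling none was and 23 were lower. The arch crest scaling moved the median gene to −1.19 in this comparison. No share of all genes called was computed for these scalings, so nothing is read from these counts. The Src-family kinase gene fyna was lower, at 1.03 and 0.353 RPM against 8.59 in the UAS:Nr2f5 library (adjusted p = 0.0153), and kept that sign under every scaling. With a mutant mean of 0.694 RPM, fyna met the filter only through that library and the control (4.98 RPM). Its call is thus no support for a difference. Against the control no gene of the list passed (median 0.08). fyna had the largest difference there, −1.85 (adjusted p = 0.118). Among members averaging 5 RPM or more, the largest were those of ptpn11a, the phosphatase Shp2, at 16.3 and 14.1 against 8.08 RPM (adjusted p = 0.179), and the PI3 kinase subunit gene pik3r3b at 6.07 and 6.61 against 11.9 (adjusted p = 0.233). In the UAS:Nr2f5 library the catalytic subunit gene pik3cb was 2.67-fold above the control (2.00 to 3.57), grb2b 1.93-fold below (1.40 to 2.72) and crk 1.70-fold below (1.47 to 1.96).

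Of 13 measured partners of the Cxcl12 system, 3 were higher in the mutants than in the UAS:Nr2f5 library and 0 lower, beside 11.2% and 8.92% of all genes. The list median of 0.19 was close to the 0.17 of all genes. These were the cytoskeletal GTPase gene rac1a (22.4 and 26.2 against 7.70 RPM, limma adjusted p = 0.00956), grk3, a kinase that desensitises receptors such as Cxcr4 (9.03 and 7.85 against 2.76, 0.0302), and arrb2b, an arrestin (8.08 and 6.57 against 2.76, 0.0446). Under the arch crest scaling these log2 differences were 0.05, 0.0043 and −0.17, and none passed. In the control they stood at 20.004, 6.04 and 9.45 RPM, so that the low library was the UAS:Nr2f5 one. It was 2.60-fold below the control for rac1a (2.05 to 3.33), 3.42-fold for arrb2b (2.31 to 5.24) and 2.19-fold for grk3 (1.46 to 3.38). ackr3b, the scavenger receptor that takes up Cxcl12, was at 14.0 and 15.1 RPM in the mutants, 14.3 for the control and 9.18 for the UAS:Nr2f5 library, and passed in neither contrast (adjusted p = 0.0913 and 0.982). No partner passed against the control, where the list's median was −0.01 and the largest difference among members averaging 5 RPM or more was that of the G protein gene gnai2a, at 8.91 and 11.6 against 6.51 RPM.

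**Figure D5:**
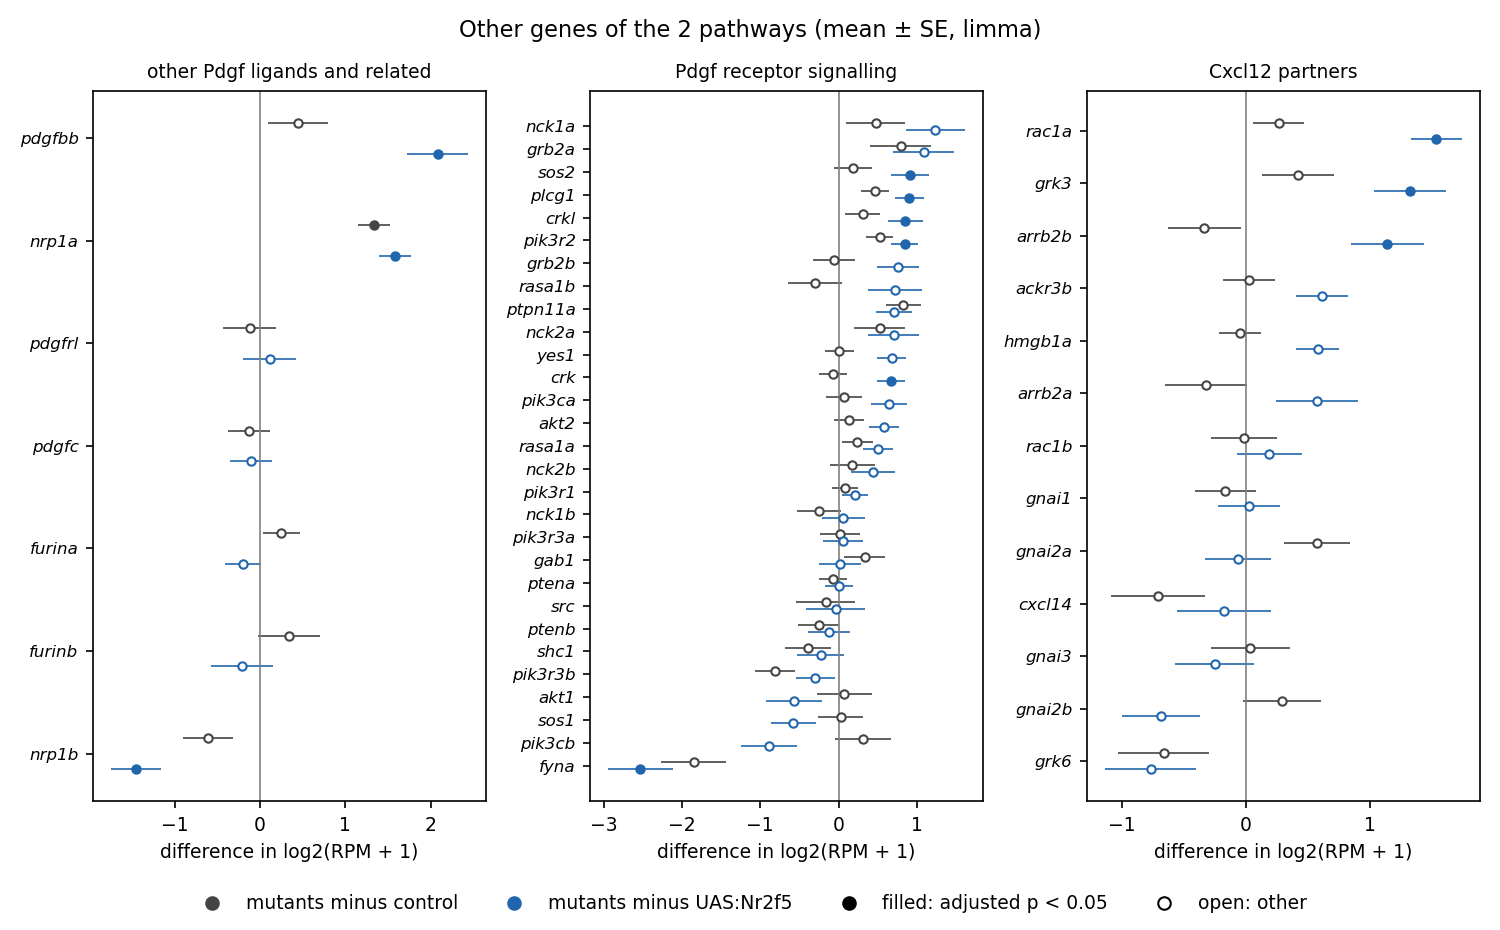
limma differences in log2(RPM + 1), mean ± SE, of the other measured genes of both systems, for the mutants minus the control (grey) and minus the UAS:Nr2f5 library (blue), filled where the adjusted p is under 0.05. Of the grey points only nrp1a is filled; of the blue ones pdgfbb, nrp1a, rac1a, grk3, arrb2b, sos2, plcg1, crkl, pik3r2 and crk are filled above 0 and fyna and nrp1b below, and pik3r2, plcg1, sos2, crk, crkl and arrb2b turn negative with the arch crest scaling.

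The nearest profiles to each member were sought among 5294 genes averaging 5 RPM or more, as the smallest Euclidean distance between log2(RPM + 1) values centred on each gene's mean over the 4 libraries. With 4 points many genes lie close, and the list describes these libraries only. pdgfra was nearest to prkra (distance 0.02) and rnmt (0.03), pdgfrb to tada3l and pam (0.06 each), and pdgfab to phf6 (0.07) and wwp2 (0.08). cxcl12a was nearest to gmfb and ctsla (0.03 each), cxcl12b to rrbp1b (0.09) and st3gal5 (0.16), and cxcr4a to mrps30 (0.05) and arfgef1 (0.08). cxcr4b had no neighbour closer than 0.33, from a gene listed as LDLRAD4 (2 of 2), with celsr1a next at 0.38.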

How the data were processed

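Per the labels' protocols, embryos were moved from 28.5 °C to 22 °C at 27 hpf, sorted cells were lysed at the 36 hpf form, SMARTer cDNA was prepared and 75-bp paired ends were sequenced. The submitters' processing notes name TopHat2, Partek and GRCz10, without versions or roles. The authors' deposited file calls its values TPM, but they were taken as RPM, normalised to library size by the authors, because most low values of a column, whatever the gene, are whole multiples of 1 step (88.4% to 94.0% of low and middle values, tolerance 0.02 read), and the full scale of 1000000 is assumed. The rest were fractional, so no count test was run. The step implies 34787205, 22677740, 10127924 and 29943427 reads (both mutants, then UAS:Nr2f5 and control). Of the 32 values of the 8 genes, 31 were whole reads, and values were rounded to reads for exact counting intervals. Without molecular identifiers, reads may be copies of 1 molecule, and the intervals and limits for 0 cover only counting error. The 2 mutant libraries had a chi-square per gene of 10.4 over 13823 genes with at least 20 reads. On average, genes thus differed between them by more than counting error.

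limma 3.58.1 (R 4.3.3; eBayes with a trend, Benjamini-Hochberg over all genes tested, threshold 0.05) was fitted to log2(RPM + 1) of the 11391 genes averaging 1 RPM or more, with 1 mean per group and all 4 libraries. A fold on that scale understates the change of low genes. The fit was tested on simulated data. Its 1 residual degree of freedom comes from the mutants, whose labels do not say whether they came from separate clutches. eBayes joined to it 5.01 prior degrees of freedom (6.01 in total), drawn from the mutant spread of all genes tested by level. SEs and p-values thus rest mostly on that pooled spread of the mutant pair, while each lone library is taken to vary alike. The planned test was for normalised values of any such unit. For the UAS:Nr2f5 library against the control no p-value is given. Genes of like level have a mean within 1.5-fold.

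The 8 genes and the 12 other lists were chosen with earlier results of these data known. The lists hold 161 genes, of which 160 were matched, 3 through reference names, and the remaining gene, ackr3a, is not analysed here. The rule named the pathway genes past the threshold and the 3 with the largest difference per list and comparison at a mean of at least 5 RPM; its picks in the marker lists are given as sums with examples. Protein and promoter sequences are not used here.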

Additional observations from a re-analysis of the deposited data

How the results depend on the processing

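Of 201 log2 differences of the 7 genes recomputed, 152 kept their direction and their side of the threshold (or moved by less than the replicate or counting spread). The filter and trend settings cannot change a log2 difference, only its adjusted p. Directions under them, and differences of the UAS:Nr2f5 library from the control under the filters, were thus the same by construction. The count of members past limma's threshold against the UAS:Nr2f5 library, 2 as reported, was 1 with a pseudocount of 0.1 (pdgfra), 1 with a mean of at least 5 RPM (pdgfra; pdgfab is then not tested), 1 without a trend (pdgfab), 0 without a filter, 3 with the median ratio (cxcr4b added) and 6 under both arch crest scalings. Against the control it was 1 (cxcr4b) instead of 0 under both arch crest scalings. The share of all genes called was not computed for these alternatives, so nothing is read from the changed counts. Between the UAS:Nr2f5 library and the control, 0 members were 2-fold apart as reported and 1 with a pseudocount of 0.1 (pdgfab). With the full and reduced arch crest lists there were 5 and 3, where the median gene moved to 0.74 and 0.47. The share of all genes 2-fold apart was not computed for these alternatives, so nothing is read from these counts.

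Signs turned mostly under the arch crest scalings, given here for the full and then the reduced list. Against the control, pdgfra became −0.21 and −0.34, pdgfrb −0.037 and −0.15, cxcl12a −0.28 and −0.40, and cxcl12b −0.24 and −0.34. Against the UAS:Nr2f5 library, pdgfra became −0.59 and −0.41, pdgfrb −1.43 and −1.26, and cxcl12a −1.42 and −1.25. pdgfra in the UAS:Nr2f5 library against the control became 0.39 and 0.077. The factor is 1 per library and scales the RPM of all genes alike, by its construction. On log2(RPM + 1) the added 1 RPM makes low genes move less. Against the UAS:Nr2f5 library the full list took pdgfra from 0.99 to −0.59 but pdgfab only from 1.48 to 0.70. Other turns were pdgfrb against the UAS:Nr2f5 library with a common sum (−0.023) or median ratio (−0.16) and cxcl12a there with the median ratio (−0.13).

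Leaving out 1 mutant leaves no residual degree of freedom, so these are values with no test. Against the control, cxcl12b ran from −0.14 to 0.64 and cxcr4a from −0.21 to 0.14; against the UAS:Nr2f5 library, pdgfrb ran from −0.18 to 0.26. The cause was not tested. No paired analysis was possible because 2 of the 3 groups hold a single library that carries no replicate number. Depth limits pdgfaa (5 to 11 reads) and pdgfab in the UAS:Nr2f5 library (4 reads).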
